A study of Mus musculus with 15 samples.

Results

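Genes that mark or act in 2 neighbouring stretches of the kidney tubule, 9 in all, were followed in the kidneys of 15 male C57BL/6 mice. That is the strain name of the labels, and the study's methods give C57BL/6J. The set was given by name and held Umod, Slc12a1, Kcnj1 and Egf of the thick ascending limb, Slc12a3, Trpm6 and Pvalb of the distal convoluted tubule, and the kinases Wnk1 and Wnk4. These were 9 of 33058 named genes in the table of linear RNAs, and they covered 117 of its 129029 transcripts. The mice were 3, 12 or 24 months old, with 5 mice at each age and, per the labels, 1 library of total kidney RNA per mouse. The labels give no other allele or treatment, and all mice had the same chow and housing. Age was therefore the only labelled difference, and each value is an average over all cell types of the kidney. Mice are named by the numbers of their labels, which run from 5 to 9 at 3 months, from 17 to 21 at 12 months and from 31 to 35 at 24 months.

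The thick ascending limb takes up sodium, potassium and chloride from the urine without water, which makes the kidney's concentrating gradient possible. The distal convoluted tubule follows it and sets the final uptake of sodium chloride and magnesium. The WNK kinases control the salt carriers of both segments through the kinases SPAK and OSR1. In whole kidney RNA, fewer cells of a segment and less RNA in each cell cannot be told apart.

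A gene's level was the sum of the FPKM of its sense transcripts, a count of fragments scaled to transcript length and to sequencing depth, so levels can be compared between genes. Library depth, taken as the ratio of coverage to FPKM, was 5.03 to 6.13 gigabases of aligned sequence at 3 months, 5.84 to 8.03 at 12 months and 6.07 to 7.33 at 24 months. Markers of the proximal tubule, principal cells, intercalated cells and podocytes were present, each with a mean of at least 1 FPKM, as they should be in whole kidney. All 9 genes were above 0 in all 15 mice.

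In the RefSeq gene table for GRCm38, the build of the files, the thick limb genes are Umod at chr7:119462708-119479262 (minus strand), Slc12a1 at chr2:125152510-125230002 (plus strand), Kcnj1 at chr9:32372418-32399197 (plus strand) and Egf at chr3:129677574-129755322 (minus strand). Those of the distal convoluted tubule are Slc12a3 at chr8:94329109-94366222 (plus strand), Trpm6 at chr19:18730177-18892521 (plus strand) and Pvalb at chr15:78191112-78206400 (minus strand). The kinase genes are Wnk1 at chr6:119923969-120038695 (minus strand) and Wnk4 at chr11:101260537-101277409 (plus strand). Some deposited transcripts reach beyond these ends.

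Umod, which encodes uromodulin, the main protein of normal urine, had the highest level of the 9 with 845 ± 91.7 FPKM (SD, n = 15) and ranked 11 among all genes. Egf, the precursor of epidermal growth factor, followed with 243 ± 26.9 FPKM. Slc12a1, the sodium-potassium-chloride carrier NKCC2 that loop diuretics block, had 199 ± 33.5 FPKM. Slc12a3, the sodium-chloride carrier NCC that thiazides block, had 159 ± 27.9 FPKM. Wnk1 had 106 ± 10.8 FPKM and Wnk4 had 22.9 ± 3.03 FPKM. The low end of the order held Kcnj1, the potassium channel ROMK, with 8.97 ± 2.29 FPKM, Trpm6, a magnesium channel, with 5.93 ± 1.87 FPKM, and Pvalb, the calcium-binding protein parvalbumin, with 5.30 ± 3.45 FPKM. Umod lay above Egf, Slc12a3 above Wnk1, Wnk1 above Wnk4 and Wnk4 above Kcnj1 in all 15 mice. The remaining neighbours crossed in some mice: Egf lay above Slc12a1 in 12 of 15, Slc12a1 above Slc12a3 in 10, Kcnj1 above Trpm6 in 12 and Trpm6 above Pvalb in 10.

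**Figure D1:**
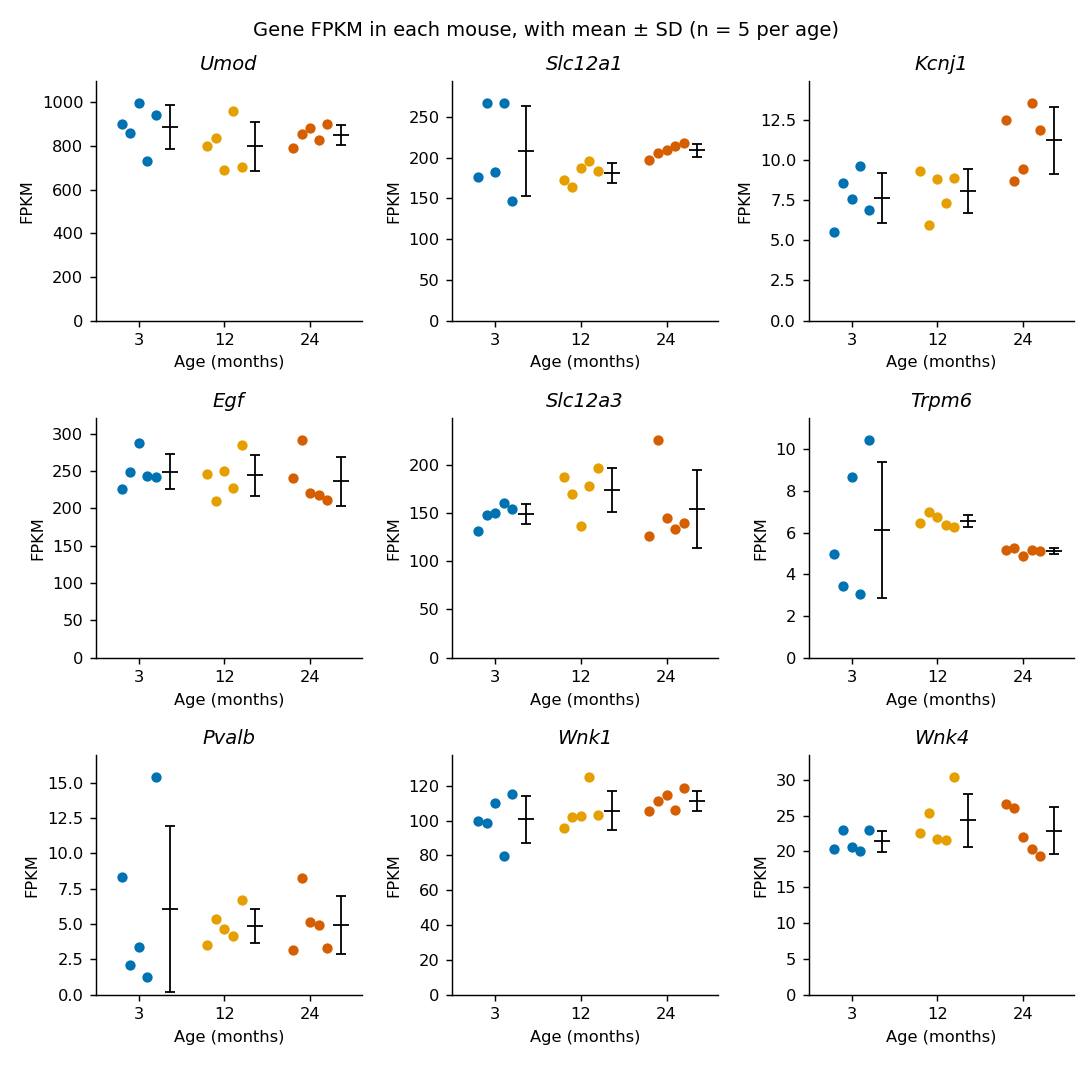
FPKM of the 9 genes in each mouse (points) by age in months, with the mean and SD of 5 mice beside each group. Trpm6, Pvalb and Slc12a1 were widely spread at 3 months, and the 5 mice of 24 months lay above the 5 mice of 12 months for Slc12a1 and below them for Trpm6.

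The first question was whether these genes differ in level between ages. None of the 9 passed an adjusted p of 0.05 in any of the 3 comparisons (limma on log2(FPKM + 1), Benjamini-Hochberg over all genes tested). Over all genes, 1.22% passed between 24 and 3 months, 0.250% between 12 and 3 months and 0.00310% between 24 and 12 months. At an unadjusted p under 0.05, 1 of the 9 was higher at 24 than at 3 months, none differed between 12 and 3 months, and 2 were higher and 1 lower at 24 than at 12 months. Over all genes at that threshold, 11.4% were higher and 3.47% lower between 24 and 3 months, 11.4% higher and 2.90% lower between 12 and 3 months, and 3.07% higher and 3.36% lower between 24 and 12 months. The median log2 difference of the 9 was 0.04 between 24 and 3 months, 0.08 between 12 and 3 months and -0.01 between 24 and 12 months, beside 0.05, 0.08 and -0.02 over the genes with a mean of at least 1 FPKM.

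**Figure D2:**
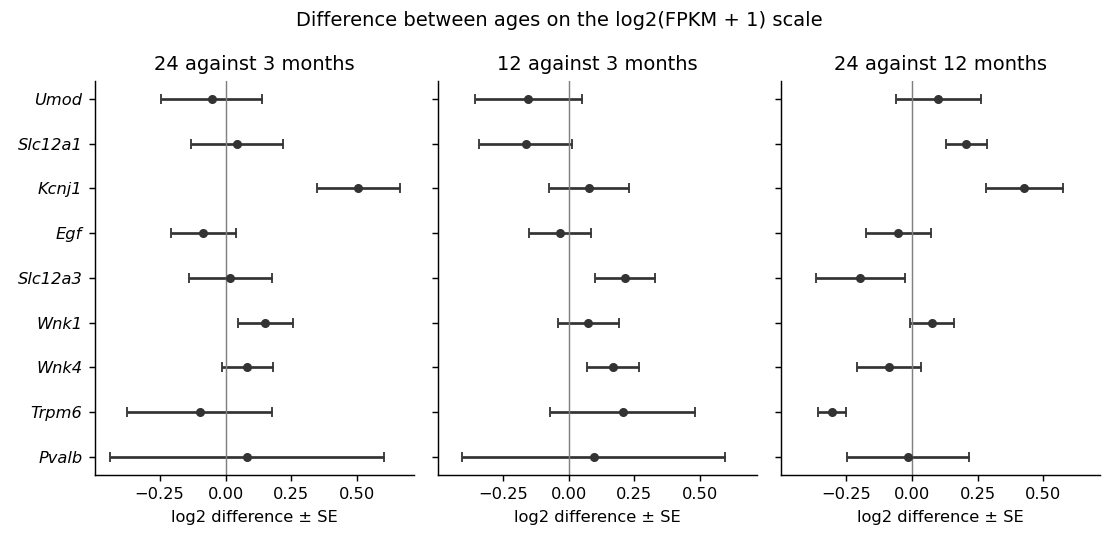
Difference between ages for each gene on the log2(FPKM + 1) scale (points) with its standard error from limma (bars), the first-named age minus the second. Kcnj1 lay at 0.50 and 0.43 in the comparisons that hold the 24-month-old mice, and Trpm6 at -0.30 between 24 and 12 months.

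Among the thick limb genes, Umod was not called at any age. It was measured at 902, 859, 999, 729 and 940.5 FPKM in mice 5 to 9, at 799.5, 838, 689, 962 and 703 FPKM in mice 17 to 21 and at 789, 856, 881, 827 and 899.6 FPKM in mice 31 to 35. The groups overlapped in every comparison. The log2 difference between 24 and 3 months was -0.05 ± 0.19 (SE) with an adjusted p of 0.914 (limma). Egf, which in the kidney also acts on magnesium uptake, overlapped between all ages as well, with 226 to 288 FPKM at 3 months, 210.2 to 285 at 12 months and 211 to 292 at 24 months.

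Slc12a1 was spread most widely at 3 months. Its values were 176, 267, 183, 267 and 147 FPKM in mice 5 to 9, 173, 164, 188, 196 and 184 FPKM in mice 17 to 21, and 197, 205, 209, 214 and 218 FPKM in mice 31 to 35. Mice 6 and 8 stood above all others and mouse 9 below all others. All 5 mice of 24 months lay above all 5 of 12 months. That difference was 0.21 ± 0.08 on the log2 scale, with an adjusted p of 0.747 (limma, unadjusted p = 0.0243). Over 18 settings it ranged from 0.088 to 0.28 and its unadjusted p up to 0.430 (adjusted p 0.581 to 0.872, limma), with the lowest difference from annotated transcripts only. Among all genes, 0.493% were separated upward in that way. The coefficient of variation of Slc12a1 was 26.7% at 3 months, 6.96% at 12 months and 3.85% at 24 months.

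Kcnj1 recycles potassium into the urine so that Slc12a1 can keep working. It was measured at 5.52, 8.54, 7.55, 9.64 and 6.87 FPKM in mice 5 to 9, at 9.32, 5.98, 8.79, 7.33 and 8.89 FPKM in mice 17 to 21 and at 12.5, 8.69, 9.41, 13.6 and 11.9 FPKM in mice 31 to 35. At 24 months, 3 mice, namely 31, 34 and 35, lay above every mouse of 3 months, and 4 lay above every mouse of 12 months. The means were 7.62 ± 1.57, 8.06 ± 1.39 and 11.2 ± 2.07 FPKM (SD, n = 5 each). The log2 difference was 0.50 ± 0.16 between 24 and 3 months (unadjusted p = 0.0096, adjusted p = 0.167, limma) and 0.43 ± 0.15 between 24 and 12 months (unadjusted p = 0.0157, adjusted p = 0.714, limma). This level needs care, because 57.1% of it came from 1 assembled transcript, chr9:32372420-32382118 on the plus strand of GRCm38, which ended before the exon with the longest coding stretch (chr9:32396321-32397457). The 3 annotated transcripts, which reach that exon, summed to 1.91, 3.52, 3.12, 4.40 and 3.37 FPKM at 3 months, to 5.12, 1.31, 3.62, 1.70 and 3.09 FPKM at 12 months and to 6.50, 3.09, 3.00, 8.99 and 5.01 FPKM at 24 months. With these transcripts only, a choice made after the data had been seen, the log2 difference between 24 and 3 months was 0.51 ± 0.27 with an unadjusted p of 0.0948 (adjusted p = 0.441, limma). Between 24 and 12 months the difference of the gene ranged from 0.34 to 0.67 over 19 settings, with an unadjusted p up to 0.0745 (adjusted p 0.471 to 0.872, limma).

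In the distal convoluted tubule, Slc12a3 had 132, 148, 150.4, 161 and 154 FPKM in mice 5 to 9, 188, 169, 137, 178 and 196 FPKM in mice 17 to 21 and 126, 226, 145, 134 and 140.0 FPKM in mice 31 to 35. At 12 months, 4 of 5 mice lay above every mouse of 3 months, and mouse 32 stood far above the others of its age. The largest of the 3 differences was 0.21 ± 0.11 on the log2 scale between 12 and 3 months, with an adjusted p of 0.447 (limma).

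Trpm6 is the channel through which magnesium enters the cells of this segment. Its levels were 5.0, 3.46, 8.66, 3.06 and 10.5 FPKM in mice 5 to 9, 6.44, 6.98, 6.75, 6.35 and 6.26 FPKM in mice 17 to 21, and 5.19, 5.27, 4.86, 5.19 and 5.10 FPKM in mice 31 to 35. The 3-month-old mice covered a 3.41-fold range, and the older groups were narrower, with 1.12-fold at 12 months and 1.08-fold at 24 months. Every mouse of 24 months lay below every mouse of 12 months, and 0.573% of all genes were separated downward between these ages. The log2 difference was -0.30 ± 0.05, with an adjusted p of 0.581 (limma, unadjusted p = 0.000221). Over 18 settings the difference ranged from -0.35 to -0.28 and the unadjusted p up to 0.213, with all 15 mice in 1 fit (adjusted p 0.383 to 0.805, limma). The comparisons with 3 months had differences of -0.10 ± 0.28 at 24 months and 0.21 ± 0.28 at 12 months, both inside the spread of the young mice.

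Pvalb in the mouse kidney is found largely in the early distal convoluted tubule. It was measured at 8.33, 2.07, 3.38, 1.23 and 15.4 FPKM in mice 5 to 9, at 3.49, 5.38, 4.65, 4.13 and 6.67 FPKM in mice 17 to 21 and at 3.18, 8.27, 5.12, 4.94 and 3.30 FPKM in mice 31 to 35. The 3-month-old mice spanned a 12.5-fold range, against 1.91-fold and 2.603-fold at the later ages. Parvalbumin is also a muscle protein, and the summed level of 4 skeletal muscle markers was 0.156 to 0.688 FPKM over the 15 mice. Each of these 4, Ckm, Acta1, Mylpf and Tnnt3, had a mean under 1 FPKM.

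At 3 months, Slc12a1 ran opposite to Trpm6 and Pvalb. Mice 6 and 8, with the highest Slc12a1, had the lowest Trpm6 and Pvalb of all 15 mice, and mouse 9, with the lowest Slc12a1, had the highest Trpm6 and Pvalb. Over 15 mice, on the log2(FPKM + 1) scale, Slc12a1 and Trpm6 had a Pearson r of -0.89 (permutation p = 3e-05, adjusted over 36 pairs p = 0.00108) and a Spearman rho of -0.80 (permutation p = 0.00059, adjusted p = 0.0212). The r was -0.78 without mice 6 and 8, the 2 farthest from the median of Slc12a1. With each age centred and mice permuted within ages only, r was -0.88 with a permutation p of 0.0672 and an adjusted p of 0.252. Slc12a1 and Pvalb had an r of -0.75 (permutation p = 0.00123, adjusted p = 0.0221), a rho of -0.60 (permutation p = 0.0197, adjusted p = 0.236) and an r of -0.54 without mice 6 and 8. With each age centred, that r was -0.81 with a permutation p of 0.0382 and an adjusted p of 0.252. Neither passed without the young mice. Over the 10 mice of 12 and 24 months, again with each age centred, r was -0.50 for Trpm6 (permutation p = 0.222, adjusted p = 0.614) and -0.05 for Pvalb (permutation p = 0.887, adjusted p = 0.969). No r is given within an age, because 5 mice are too few for one.

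**Figure D3:**
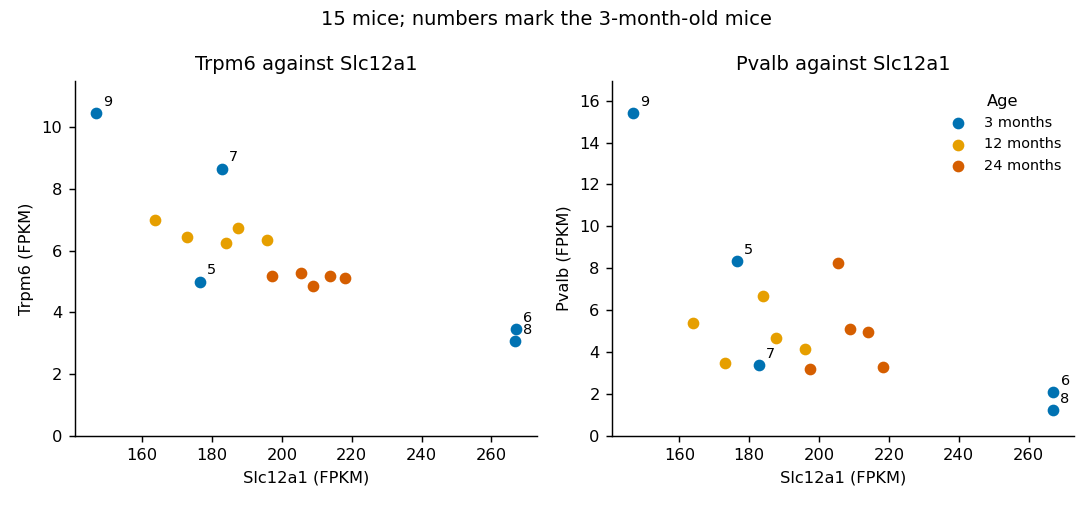
FPKM of Trpm6 (left) and of Pvalb (right) against FPKM of Slc12a1 in 15 mice coloured by age, with the 3-month-old mice numbered. Mice 6 and 8 lie at the lower right of both plots and mouse 9 at the upper left.

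These were the only pairs of the 36 that passed an adjusted p of 0.05 by Pearson r, only the first passed by Spearman rho, and none passed with ages centred, over all 15 mice or over the 10 older ones. The smallest centred p belonged to Umod and Wnk1 (r = 0.82, permutation p = 0.00309, adjusted p = 0.111). Other measures differed between the same young mice. The summed level of 4 principal cell markers was 139, 234, 72.8, 164 and 104 FPKM in mice 5 to 9 and 52.5 to 95.9 FPKM in the older mice, so mice 6 and 8 were also highest in that sum. Aqp2, Aqp3 and Hsd11b2 were each highest in these mice, but Scnn1g was highest in mouse 9. Scnn1g had 9.66, 14.2, 13.8, 10.5 and 16.5 FPKM in mice 5 to 9. The summed level of 14 other genes of thick limb transport was 1453, 2238, 1402, 1419 and 1676 FPKM in the same order, highest in mouse 6 but not raised in mouse 8. The libraries of mice 6 and 8 were the shallowest of their age, with 5.59 and 5.03 gigabases. The part of these differences in the relation was not tested.

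Of the kinases, neither gene sum was called. Wnk1 had 79.8 to 115 FPKM at 3 months, 95.8 to 125 at 12 months and 105 to 119 at 24 months, and Wnk4 had 20.1 to 23.0, 21.6 to 30.4 and 19.3 to 26.6 FPKM. The groups overlapped throughout, and the smallest adjusted p of either gene was 0.481 (limma), for Wnk4 between 12 and 3 months. With annotated transcripts only, the Wnk4 difference against 3 months changed sign at both later ages, as given in the last section.

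The transcripts behind the Wnk1 sum differed more between mice. Wnk1 has a long form that starts at exon 1 and a short form without most of the kinase domain, made in the distal convoluted tubule, that starts inside intron 4. Transcripts were grouped by their first base, in exon 1 or upstream of it (chr6:120036874-120038672, minus strand, GRCm38) or in intron 4 (chr6:119972857-119990091). The 9 transcripts of the first group held 47.6% of the gene's FPKM over 15 mice, the 18 of the second group held 31.2%, and 22 others held 21.2%. The intron 4 group had 16.96, 47.0, 20.2, 16.6 and 58.5 FPKM in mice 5 to 9, 21.8, 58.7, 59.8, 20.9 and 17.7 FPKM in mice 17 to 21 and 24.2, 20.8, 58.4, 30.5 and 23.8 FPKM in mice 31 to 35. Mice 6, 9, 18, 19 and 33 therefore had 47.0 to 59.8 FPKM and the other 10 mice 16.6 to 30.5 FPKM, with such mice at every age. This split was noticed after the values had been seen and was not tested. In those same 5 mice the exon 1 group was low, at 26.0 to 40.1 FPKM, against 48.5 to 73.8 FPKM in the other 10. The share of neither group differed between ages, with exact permutation p values of 0.532 to 0.976. StringTie apportions reads among overlapping transcripts, and how much of the split between mice came from that step was not tested.

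**Figure D4:**
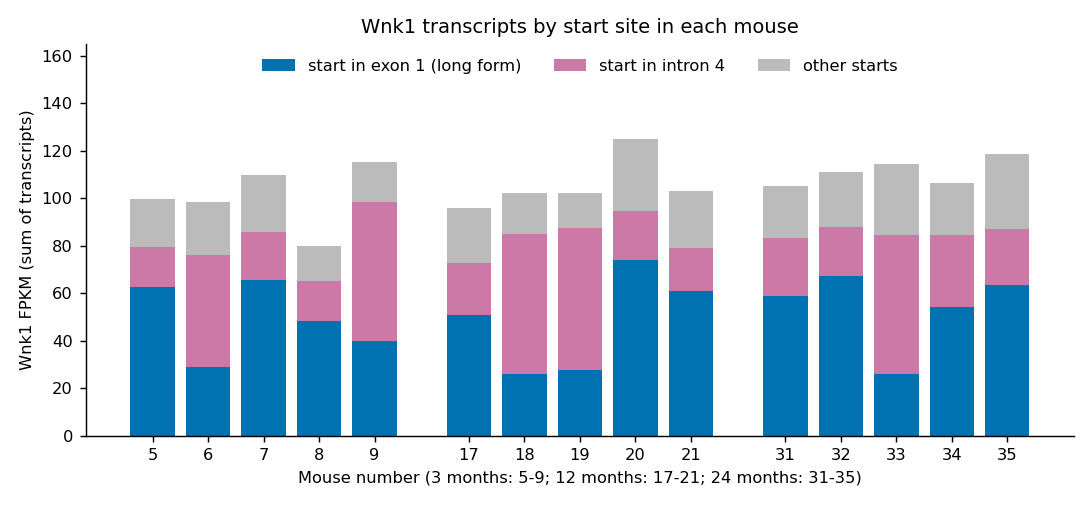
Wnk1 FPKM in each mouse as stacked bars, divided into transcripts that start in exon 1, transcripts that start in intron 4 and all others. In 5 mice, 2 at 3 months, 2 at 12 months and 1 at 24 months, there is more FPKM in the intron 4 group than in the exon 1 group, while the totals stay between 79.8 and 125 FPKM.

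Wnk4 showed a like pattern in its leading transcript. ENSMUST00000103108 held 30.6% to 52.5% of the gene in 11 mice, 12.9% in mouse 9 and 0.236% to 1.21% in mice 21, 31 and 32. In mice 21, 31 and 32 the assembled transcript MSTRG.6970.4 held 55.7%, 28.1% and 48.1%. Its share at 24 months exceeded that at 3 months by 14.2 percentage points, with an exact permutation p of 0.0794.

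The mouse Slc12a1 gene carries 3 alternative versions of a 96-base exon, known from other work as A, B and F, which give carriers with different ion affinities along the thick limb. Here they are numbered from 1 to 3 in genomic order, without assigning the letters. Each is exon 5 of 27 in 1 annotated transcript. The versions lie at chr2:125165495-125165590 (ENSMUST00000110494), chr2:125166123-125166218 (ENSMUST00000028630) and chr2:125166673-125166768 (ENSMUST00000110495), all on the plus strand of GRCm38, within the coding region. They are shown because the FPKM of the 3 transcripts depends in part on telling them apart. These transcripts also differ in their ends. Which version the assembled Slc12a1 transcripts carry is not given, so the FPKM of the 3 does not measure the use of each version. Capitals mark the positions at which the 3 versions are not all the same.
version 1: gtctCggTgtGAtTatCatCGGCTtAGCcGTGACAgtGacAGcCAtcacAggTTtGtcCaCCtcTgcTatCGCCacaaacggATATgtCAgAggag
version 2: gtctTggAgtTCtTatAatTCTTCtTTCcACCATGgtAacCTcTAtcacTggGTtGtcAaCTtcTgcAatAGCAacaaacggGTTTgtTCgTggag
version 3: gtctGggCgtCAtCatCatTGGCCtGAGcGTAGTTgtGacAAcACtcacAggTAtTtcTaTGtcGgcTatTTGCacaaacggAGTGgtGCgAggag

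The 3 versions were the same at 51 of 96 bases. Versions 1 and 2 were 65.6% identical, versions 1 and 3 68.8% and versions 2 and 3 58.3%. The transcript with version 3 had 57.3, 8.15, 3.79, 14.3 and 4.12 FPKM in mice 5 to 9, 6.97, 2.70, 4.74, 1.44 and 5.86 FPKM in mice 17 to 21 and 4.65, 3.75, 3.76, 3.62 and 4.67 FPKM in mice 31 to 35. Mouse 5 stood alone, and the next mouse of its age was mouse 8 with 14.3 FPKM. The transcript with version 2 had 24.9 FPKM in mouse 5 and 7.90 to 18.1 FPKM in the other young mice, 4.70 to 11.8 FPKM at 12 months and 5.73 to 17.2 FPKM at 24 months. That with version 1 had 4.14 to 18.95, 2.65 to 6.76 and 3.75 to 6.22 FPKM at the 3 ages. The 3 transcripts together made up 57.3% of the gene in mouse 5 and 8.66% to 17.2% in the other 4 young mice. At 12 months they made up 6.35% to 13.4% and at 24 months 6.15% to 12.7%, and 2 assembled transcripts held most of the rest. The difference in that share between 24 and 3 months was -12.9 percentage points with an exact permutation p of 0.0556, and no other young mouse came near the 57.3% of mouse 5.

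ENSMUST00000147095 is a 5-exon transcript at the start of Slc12a1 that the annotation lists as a retained intron. It held 8.43%, 16.2%, 16.0%, 12.9% and 16.9% of the gene in mice 5 to 9 and 17.8%, 20.5%, 18.1%, 20.7% and 17.3% in mice 17 to 21. All mice of 12 months lay above all mice of 3 months. The difference was 4.79 percentage points with an exact permutation p of 0.00794, the smallest that 5 against 5 mice can give, and with an adjusted p of 0.573 over all isoform shares. It was the only share of a member with an exact p under 0.05 in any comparison. Over all isoform shares tested, 7.43% passed that threshold between 12 and 3 months.

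Of the sense transcripts of the 9 genes, none passed an adjusted p of 0.05 in any comparison (limma over all transcripts). Over all transcripts, 0.0192% passed between 24 and 3 months, 0.00481% between 12 and 3 months and 0.00559% between 24 and 12 months. At an unadjusted p under 0.05 there were 8 of 117 between 24 and 3 months, 12 of 116 between 12 and 3 months and 9 of 117 between 24 and 12 months, which is 6.84%, 10.3% and 7.69% beside 7.90%, 7.46% and 4.47% of all transcripts. The smallest adjusted p, 0.119, belonged to a minor Umod transcript, ENSMUST00000207261, a 3-exon model at the 5′ end of the gene. It had 0.212 to 0.347 FPKM at 3 months and 1.09 to 2.06 FPKM at 24 months without overlap, a log2 difference of 0.87 ± 0.13. Among all transcripts, 1.61% were separated upward between these ages. Its neighbour ENSMUST00000207460, also a 3-exon model there, had 0.824 to 1.97 FPKM at 3 months and 2.26 to 4.59 FPKM at 24 months, again without overlap, and an adjusted p of 0.285. These 2 minor transcripts were chosen for mention after their values had been seen, beside 845 FPKM for the whole gene.

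The same libraries were also summarised by the authors as circular RNAs, and 63 of those listed had a host among the 9 genes. They were 19 for Slc12a1, 13 each for Egf and Wnk1, 7 for Trpm6, 4 each for Slc12a3 and Wnk4 and 3 for Umod, and none for Kcnj1 or Pvalb. The deposited estimated counts of these entries may hold reads of the whole interval and not only reads across a back-splice. The entry ciRNA460 of Umod, listed as intronic, lies wholly within exon 3 of the main transcript (chr7:119476840-119477282) and had a mean of 9783 counts. The values are given as reads from an interval, in CPM, that is, counts scaled to the library's total in that table, and linear RNA of the same interval cannot be told apart from a circle.

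Both listed intervals in introns of Umod rose between 3 and 24 months. The interval ciRNA123, inside intron 6 (chr7:119469505-119471333), had 11.2, 26.9, 21.2, 18.4 and 15.2 CPM in mice 5 to 9, 21.5, 50.3, 35.4, 42.6 and 68.4 CPM in mice 17 to 21 and 62.4, 59.0, 58.7, 43.6 and 92.5 CPM in mice 31 to 35. All mice of 24 months lay above all mice of 3 months. The log2 difference was 1.69 between 24 and 3 months (adjusted p = 0.00105) and 1.19 between 12 and 3 months (adjusted p = 0.0261, edgeR's quasi-likelihood test). The second call was lost without mouse 8, 18 or 21, and its adjusted p ranged up to 0.0619 over the alternatives. The interval ciRNA37, inside intron 1 of the main transcript (chr7:119478375-119479151), had 8.57 ± 3.91 CPM at 3 months, 14.2 ± 7.02 at 12 months and 25.5 ± 6.18 at 24 months (SD, n = 5 each), with a log2 difference of 1.49 between 24 and 3 months and an adjusted p of 0.00326 (edgeR). It shares 109 exon bases with the minor transcript ENSMUST00000207460, so these 2 are not separate measurements. The exonic interval ciRNA460 had 1189 ± 152 CPM at 3 months and 1174 ± 206 CPM at 24 months, and an adjusted p of 0.674 (edgeR). Both calls at 24 against 3 months held without each of the 10 mice in turn. Among all listed circular RNAs, 6.66% were called higher between 24 and 3 months and 3.44% between 12 and 3 months, and among the 63 they were 2 and 1. How many of all listed circular RNAs were separated without overlap is not given.

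**Figure D5:**
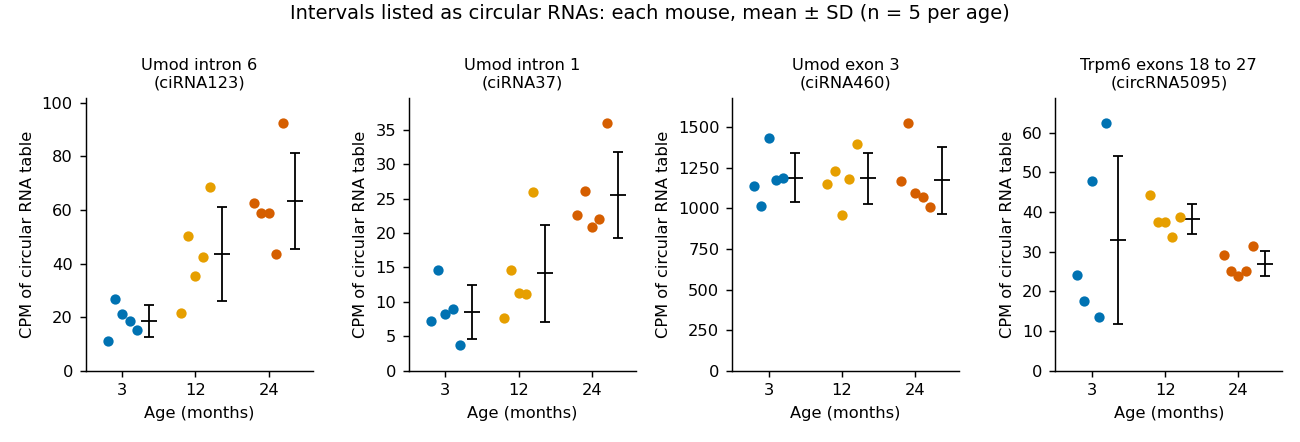
CPM of 4 intervals listed as circular RNAs in each mouse (points) by age in months, with the mean and SD of 5 mice. The intron 6 and intron 1 intervals of Umod are higher at 24 than at 3 months without overlap, the exon 3 interval overlaps between all ages, and the Trpm6 interval is lower at 24 than at 12 months.

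Trpm6 intervals were lower at 24 than at 12 months. Of the 7, 3 passed an adjusted p of 0.05 there (edgeR), namely circRNA5095 over exons 18 to 27 (chr19:18819038-18856264), circRNA468 over exons 18 to 30 and circRNA4156 over exons 20 to 36. They share exons with each other and with the linear transcript, so they are not separate measurements. The interval circRNA5095 had 44.2, 37.5, 37.4, 33.7 and 38.8 CPM in mice 17 to 21 and 29.1, 25.1, 24.0, 25.2 and 31.5 CPM in mice 31 to 35, without overlap. Its log2 difference was -0.55 with an adjusted p of 0.0203, and those of circRNA468 and circRNA4156 were -0.55 and -0.52 with an adjusted p of 0.0354 for each (edgeR). DESeq2, an alternative fitted only with all 10 mice, gave an adjusted p of 7.63e-05 for circRNA5095 and 0.000722 for each of circRNA468 and circRNA4156. The edgeR calls depended on single mice. The call of circRNA5095 held in 6 of 10 fits that left out 1 mouse and was lost without mouse 17, 19, 33 or 34. That of circRNA4156 held in 4 of 10 and was lost without mouse 17, 18, 19, 20, 33 or 34, and that of circRNA468 held in 3 of 10 and was lost without those mice or mouse 31. All 7 Trpm6 intervals had an unadjusted p under 0.05 in that direction. Over all listed circular RNAs, 0.428% passed the adjusted threshold downward between these ages and 8.88% the unadjusted one. The share separated downward without overlap is not given. At 3 months the same interval spanned 13.5 to 62.5 CPM, with mice 6 and 8 lowest and mice 7 and 9 highest as for the linear gene.

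Genes that act with the members were counted in 3 lists. Of 14 genes of thick limb transport, none passed an adjusted p of 0.05 in any comparison (limma). At an unadjusted p under 0.05, 1 was higher and 0 lower between 24 and 3 months, 1 higher and 3 lower between 12 and 3 months, and 3 higher and 0 lower between 24 and 12 months. For these and the lists that follow, the shares over all genes differed by direction. They were 11.4% higher and 3.47% lower between 24 and 3 months and 11.4% and 2.90% between 12 and 3 months. Between 24 and 12 months they were 3.07% and 3.36%. Maged2, which supports the surface expression of both salt carriers, had 2.56 ± 0.286 FPKM at 3 months, 3.73 ± 0.300 at 12 months and 3.45 ± 0.306 at 24 months. The older groups both lay above the young group without overlap, with adjusted p of 0.0838 at 12 months and 0.116 at 24 months (limma). Over all genes, 3.45% and 3.82% were separated upward from 3 months at these ages. Ptger3, a prostaglandin E receptor of the thick limb, had 5.72 ± 0.769, 3.94 ± 0.341 and 5.50 ± 1.21 FPKM at the 3 ages, and its adjusted p between 12 and 3 months was 0.0901 (limma).

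Of 11 genes of WNK and SPAK signalling, none passed the adjusted threshold either. At an unadjusted p under 0.05, 1 was higher and 1 lower between 24 and 3 months, 1 higher and 2 lower between 12 and 3 months, and 1 higher and 0 lower between 24 and 12 months. Sgk1, an aldosterone-induced kinase, had 89.2 ± 23.7 FPKM at 3 months, 40.7 ± 15.6 at 12 months and 75.5 ± 27.2 at 24 months, with an adjusted p of 0.139 between 12 and 3 months (limma). Nedd4l, the ubiquitin ligase that Sgk1 restrains, had 24.4 ± 6.19, 16.0 ± 2.76 and 17.6 ± 2.84 FPKM. Of 12 genes of potassium and magnesium handling in the distal convoluted tubule, 11 were in the table. None of them passed the adjusted threshold, and at an unadjusted p under 0.05 only 2 were higher, both between 12 and 3 months. Slc41a1, a magnesium transporter, had 3.87 ± 0.846 FPKM at 3 months and 5.36 ± 0.515 FPKM at 12 months, with an adjusted p of 0.218 (limma).

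Markers of other cell types differed between ages at an unadjusted p in several lists. Over all genes, 11.4% were higher at an unadjusted p under 0.05 (limma) at each later age against 3 months. The shares lower were 3.47% at 24 and 2.90% at 12 months. Summed leukocyte markers were 3.75 to 11.1 FPKM at 3 months, 8.98 to 22.5 at 12 months and 7.38 to 20.1 at 24 months, with 3 of 4 higher at an unadjusted p under 0.05 at each later age against 3 months. Summed fibroblast markers were 12.6 to 31.1, 30.5 to 53.3 and 24.5 to 40.6 FPKM, with 3 of 3 higher at that threshold at 12 months and 2 of 3 at 24 months against 3 months. Summed proximal tubule markers were 1611 to 1988, 1667 to 2091 and 1473 to 1893 FPKM, with 2 of 6 lower at that threshold at 24 months and 0 at 12 months against 3 months. Principal cell markers had a median log2 difference of -0.63 at 24 and -0.60 at 12 months against 3 months, with 1 of 4 lower at that threshold each time and all 4 below 0. Summed intercalated cell markers were 32.5 to 49.7, 31.6 to 41.7 and 31.6 to 41.8 FPKM, with 1 of 4 lower at each later age. That gene was Slc26a4, the chloride-bicarbonate exchanger pendrin, named here after its values had been seen. It had 14.7 ± 2.21, 10.7 ± 0.891 and 9.77 ± 1.32 FPKM at the 3 ages. None of the marker genes passed an adjusted p of 0.05 (limma), and their part in the members' differences was not tested.

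The genes whose levels followed Umod most closely over the 15 mice were Slc38a7 (r = 0.85), Tmem55a (r = 0.84) and Gm37401 (r = 0.80), among 13437 genes with a mean of at least 1 FPKM. For Slc12a3 they were Slc35b2 (r = 0.88), Nup188 (r = 0.86) and Itgb5 (r = 0.84). None of the 6 was on the lists of related genes, and these values are highest of many and are given as a description only.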

How the data were processed

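Total kidney RNA of 15 mice was sequenced, with 1 library per mouse number in the labels and columns, although the study's methods also speak of pooled RNA. Per the labels ribosomal RNA was removed and a stranded kit was used, while the study's methods describe oligo(dT) selection. Per the study's methods, the authors used Cutadapt for trimming, Bowtie2 and HISAT2 for alignment (GRCm38, Ensembl annotation) and StringTie for assembly. The submitters' processing notes name TopHat2, TopHat and StringTie without versions. The deposited FPKM values and the deposited coverage signal came from StringTie, and the deposited circular RNA table holds estimated counts and FPKM. Titles carry a 3M prefix whatever the age, and groups follow the age label. Nothing states whether mice shared litters or batches.

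A gene's level was the sum of FPKM over its rows with class code =, c, j or o. Levels were tested on log2(FPKM + 1) with limma 3.58.1 (trend = TRUE) in R 4.3.3, using the mice of the 2 ages compared and all genes or transcripts above 0 in at least 1 of them. On this scale a difference of low genes is understated. The estimated counts were rounded and tested with edgeR 4.0.16 (quasi-likelihood, TMM), with DESeq2 1.42.0 as an alternative, for entries above 0 in at least 5 mice. Calls used a Benjamini-Hochberg adjusted p under 0.05. Isoform shares of at least 10% were compared with exact 2-sided permutation tests over 252 assignments and adjusted over all shares of the table. Correlations used 100000 permutations. The limma, edgeR and isoform share tests were run on simulated data with known changes, and the correlation test and DESeq2 were not. The simulated gene changes were 1 on the log2 scale, larger than any main difference of the 9 members. They therefore do not show whether differences of the members' size would be found. The named genes were all 9 members, their isoforms of at least 10%, 3 genes most like Umod and Slc12a3, and list genes among the 2 smallest p in each direction. Members and lists were chosen with earlier results of these data known. Gene loci are those of RefSeq, transcript and interval positions those of the files, and exons and exon sequences those of GENCODE vM21, all on GRCm38. Intervals for counting error were not computed because FPKM hold no counts. The values of 1 listed gene are not reported here.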

Additional observations from a re-analysis of the deposited data

Results flagged for a closer look

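Each group of 5 mice was examined for a single mouse that stood apart, by the gap to its nearest neighbour over the range of the group. The 9 members, their isoforms of at least 10%, the 2 Wnk1 start groups, the 3 Slc12a1 transcripts with the alternative exon and the 5 listed circular RNAs called in any comparison gave 120 groups, and the other listed circular RNAs were not examined in this way. Of these groups, 13 passed the limit of 0.71, and chance alone flags about 1 in 20 groups. No explanation was tested for any of them.

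Slc12a3 had 226 FPKM in mouse 32 of 24 months, while the other 4 mice of that age had 126 to 145 FPKM, and its transcript ENSMUST00000212134 had 42.4 FPKM in the same mouse against 10.7 to 18.6. Its transcript MSTRG.36180.9 was low in mouse 17 of 12 months, with 21.2 FPKM against 47.8 to 56.4. Wnk1 had 125 FPKM in mouse 20 of 12 months against 95.8 to 103, and its intron 4 group had 58.4 FPKM in mouse 33 of 24 months against 20.8 to 30.5. For Wnk4, MSTRG.6970.2 had 4.53 FPKM in mouse 34 of 24 months against 0.261 to 1.19, and ENSMUST00000103108 had 2.96 FPKM in mouse 9 of 3 months against 8.71 to 10.3.

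The Pvalb transcript ENSMUST00000005860 had 15.4 FPKM in mouse 9 of 3 months against 1.23 to 4.49. The other Pvalb transcript, ENSMUST00000120592, was above 0 in 1 mouse of each age, with 3.84 FPKM in mouse 5, 2.15 FPKM in mouse 21 and 2.73 FPKM in mouse 33, and it is listed at 0 in the other 12 mice. The Trpm6 transcript MSTRG.17836.1 had 2.06 FPKM in mouse 7 of 3 months against 0.551 to 0.969. The Slc12a1 transcript ENSMUST00000110495 had 57.3 FPKM in mouse 5 of 3 months against 3.79 to 14.3.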

How the results depend on the processing

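No paired analysis was possible because the groups share no replicate number. The count of member genes called was 0 in every fit that left out 1 mouse, as was that of member transcripts. Log2 differences that were small in the main fit, of genes that were not called, changed sign with the scaling or the transcripts summed. Not all of the changed values were small, with -0.77 for Wnk4 the largest in size, and the cause was not tested. Between 24 and 3 months, median-ratio scaling gave -0.069 for Slc12a1, -0.10 for Slc12a3, -0.026 for Wnk4 and -0.013 for Pvalb, and annotated transcripts only gave 0.0027 for Umod, -0.32 for Slc12a1, -0.19 for Slc12a3 and -0.77 for Wnk4. Between 12 and 3 months, median-ratio scaling gave -0.043 for Kcnj1, -0.060 for Wnk1 and -0.017 for Pvalb, and annotated transcripts only gave -0.17 for Kcnj1, -0.029 for Wnk1 and -0.22 for Wnk4. The Kcnj1 transcripts with the coding exon, a choice made after seeing the data, are the annotated ones and gave the same -0.17. Between 24 and 12 months, TPM gave 0.016 for Egf and 0.040 for Pvalb. Leaving out 1 mouse at a time, the log2 differences that crossed 0 ranged between 24 and 3 months from -0.070 to 0.15 for Slc12a1, -0.13 to 0.082 for Slc12a3, -0.27 to 0.10 for Trpm6 and -0.24 to 0.48 for Pvalb. Between 12 and 3 months they ranged from -0.019 to 0.17 for Kcnj1, -0.091 to 0.019 for Egf, -0.0056 to 0.13 for Wnk1, -0.22 to 0.50 for Pvalb, -0.18 to 0.37 for the Trpm6 interval circRNA4156, -0.11 to 0.50 for circRNA468 and -0.029 to 0.52 for circRNA5095. Between 24 and 12 months they ranged from -0.13 to 0.0071 for Egf and -0.19 to 0.10 for Pvalb. At an unadjusted p under 0.05 with an absolute log2 difference above 1, 1 member transcript passed between 24 and 3 months, 4 between 12 and 3 months and 3 between 24 and 12 months. The share of all transcripts that passed both limits is not given, so these counts cannot be judged against it. DESeq2 called 4 listed circular RNAs between 12 and 3 months and 7 between 24 and 12 months, where edgeR called 1 and 3. Without 1 mouse, edgeR called 0 to 2 and 0 to 7. Shares of all listed circular RNAs under these alternatives are not given either. Isoform shares with an exact p under 0.05, left out by mouse after seeing the data, numbered 0 to 2, 1 to 2 and 0 to 1 in the 3 comparisons. Of the 36 correlations, 1 passed by Spearman rho and 0 with ages centred, by either coefficient or in the mice of 12 and 24 months only, which were also choices made after seeing the data. The log2 difference of Kcnj1 between 24 and 3 months was 0.40 to 0.59 and its adjusted p 0.115 to 0.482 over 19 settings.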
